A study of Homo sapiens with 6 samples.

Results

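The genes described here are TFPI2 and 8 other genes of blood coagulation control and plasminogen activation, followed in HEK293 cells grown beside cells that release reactive oxygen species (ROS). They are 9 of the 23686 genes in the deposited tables. TFPI2 was chosen by its measured log2 fold change, one of the 5 largest increases in this same comparison of co-culture with control. TFPI, THBD, F3, PLAU, PLAT, PLAUR, SERPINE2 and THBS1 were added by function, with earlier results of these data known. All 9 genes passed the filter on low counts. RNA-seq libraries were made from 6 samples of HEK293, an established human embryonic kidney cell line, and all sampled cells carried GFP. In the co-culture group, 3 samples spent 10 h together with ROS-producing HEK293 cells carrying DAAO (D-amino acid oxidase, by the usual reading of the abbreviation), an enzyme that yields hydrogen peroxide from D-amino acids, with D-alanine at 25 µM. The other 3 samples were GFP-positive wild-type controls, and cells of both groups were sorted for GFP. The labels give the same treatment text for all 6 samples, so they do not say whether controls received D-alanine or partner cells, and nothing says that the 3 samples of a group came from separate cultures, in which case p-values measure only the spread between these samples.

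Tissue factor, the product of F3, starts coagulation by binding factor VIIa at the cell surface, and TFPI shuts this step down. Thrombomodulin, from THBD, turns thrombin toward the anticoagulant protein C. Plasminogen is cut to plasmin by tissue-type (PLAT) and urokinase-type (PLAU) activators, the second of which works at the cell surface on its receptor PLAUR, and the serpin protease nexin-1, from SERPINE2, blocks thrombin and both activators. TFPI2, a relative of TFPI with Kunitz domains, is a matrix-bound inhibitor of plasmin and other serine proteases, and THBS1 encodes thrombospondin-1, a matrix protein released by platelets and many other cells.

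The libraries held 19091085 to 36250314 gene-assigned reverse-strand reads, so that 1 read was worth 0.0276 to 0.0524 CPM, a count scaled to a common library total. The CPM values below are also scaled by trimmed means of M-values (TMM). The HEK293 markers fixed for this purpose (NEFL, NEFM, INA, PAX2, VIM, KRT8 and KRT18) were all detected, and their summed level was 2127 to 2344 CPM in co-culture against 1753 to 1823 CPM in controls. Of these 7 markers, INA and VIM rose, with log2 fold changes of 0.38 and 0.40 (adjusted edgeR p 0.0118 and 0.00793). The others had adjusted p-values above 0.05, and PAX2 was lower (-0.24, adjusted edgeR p 0.368). An adjusted p under 0.05 was reached by 4.83% of all tested genes. VIM made up most of the sum, at 1258 to 1318 CPM in co-culture against 925 to 998 CPM in controls. The 6 endothelial markers summed to 0.251 to 0.450 CPM in co-culture against 0.253 to 0.313 CPM in controls, with TIE1 at 0 reads. The 6 leukocyte and platelet markers summed to 9.11 to 12.2 CPM in co-culture and 7.46 to 11.2 CPM in controls. Most of this was ITGA2B, at 7.86 to 10.4 and 5.53 to 9.25 CPM, groups that overlapped. PTPRC, GP1BA and PF4 reached at most 0.365 CPM in any library, and PPBP had 0 reads. The means of CD14, PTPRC, GP1BA and PF4 were lower in co-culture. The partner HEK293 cells have no marker in these lists. A technical measure also divided the libraries. Over genes with many reads, the forward strand, where a stranded kit should leave almost none, held a median share of 0.124% and 0.211% in co-culture libraries 2 and 3 and 1.57% to 1.75% in co-culture library 1 and the controls. A fit that adds this class of library as a term compares, in effect, co-culture library 1 with the 3 controls, and its values are given beside the results that they change.

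Of the 8 genes other than TFPI2, 5 had co-culture levels that all lay above all control levels, namely TFPI, F3, PLAUR, SERPINE2 and THBS1. The groups of TFPI2 lay apart too, but it was chosen partly on that. Co-culture above control was seen for 14.3% of the 14582 tested genes, and groups lay apart in either direction for 29.3%. Among these 8 genes, SERPINE2, PLAUR, F3 and THBS1 passed edgeR's quasi-likelihood test at a Benjamini-Hochberg adjusted p under 0.05 over all tested genes, all 4 higher in co-culture, while TFPI, THBD, PLAU and PLAT did not. Over all tested genes 4.83% passed, 2.66% as higher. The 8 genes were not picked blind to these data, so their counts beside these shares are a description. In bulk RNA, fewer cells with a transcript and less transcript per cell cannot be told apart.

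**Figure D1:**
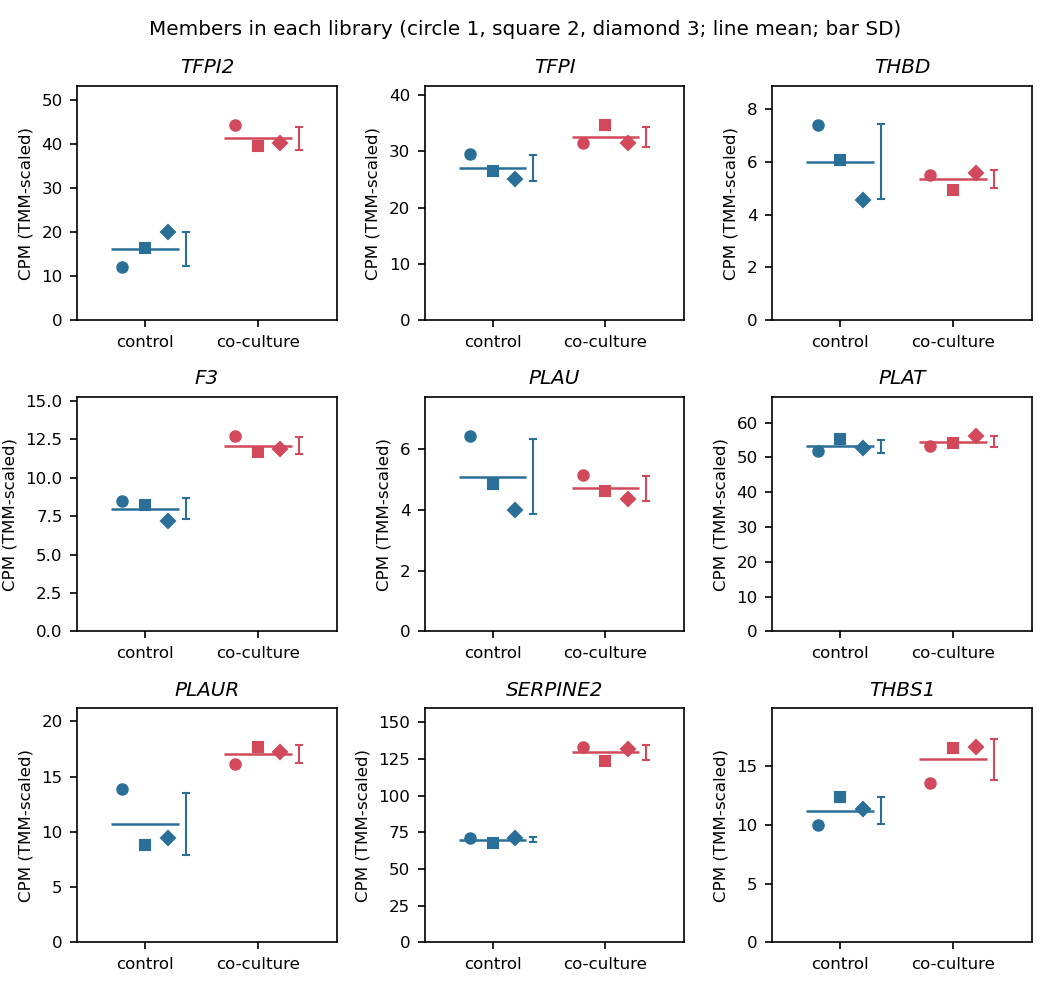
Each panel plots 1 gene in TMM-scaled CPM on an axis from 0, with a point per library (circle, square and diamond for replicates 1, 2 and 3), a line at the group mean and a bar for the SD over 3 libraries. The co-culture points of TFPI2, SERPINE2, F3, PLAUR, THBS1 and TFPI lie above all control points, and those of THBD, PLAU and PLAT overlap the range of the controls.

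TFPI2, the Kunitz-type inhibitor of the pericellular matrix, stood at 44.3, 39.5 and 40.1 CPM in co-culture libraries 1, 2 and 3. In controls 1, 2 and 3 it stood at 12.1, 16.4 and 20.0 CPM. The groups were far apart, and the controls differed more among themselves than the co-culture libraries did, with control 1 lowest. The mean level was 41.3 ± 2.58 CPM against 16.2 ± 3.91 CPM (SD, n = 3 each), or 2.54-fold, a log2 fold change of 1.34 (SE 0.15). Because TFPI2 was chosen for this difference, it is a description and carries no test. Ordered by log2 fold change among genes past the threshold that averaged 5 CPM or more and whose groups lay apart, TFPI2 was the second. The last gene inside the 5 largest was CALCB, with a log2 fold change of 1.12, and the first outside was EMP1, with 1.09. In 14 other settings the log2 fold change of TFPI2 ran from 1.18 without control 1 to 1.54 without control 3, which left out the lowest and the highest control. It was 1.45 (SE 0.20) with the forward-strand class as a term.

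Its relative TFPI, the secreted inhibitor of the tissue factor complex, stood at 31.5, 34.7 and 31.6 CPM in co-culture and at 29.6, 26.5 and 25.2 CPM in the controls. The groups did not overlap, but co-culture library 1 and control 1 were only about as far apart as replicates were. The log2 fold change was 0.27 (SE 0.08), and TFPI missed the threshold (adjusted edgeR p 0.0895). It passed in 1 of 14 other settings, without control 1 (0.33, adjusted edgeR p 0.00526), with adjusted p-values from 0.00526 to 0.504 over all of them. Set against TFPI within each library, per base of transcript, TFPI2 was at 2.23, 1.81 and 2.02 times the level of TFPI in co-culture. In the controls this ratio was 0.651, 0.980 and 1.26. Both genes come from 1 library in each ratio, so it does not depend on how libraries were scaled, and the order of the pair differed between controls 1 and 3. TFPI2 was chosen for its increase, so the higher ratio in co-culture largely restates that choice and is a description.

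The promoter letters are shown for this pair and for F3 and PLAUR. TFPI2, F3 and PLAUR were the members whose upstream windows held a match to TGANTCA, a loose form of the AP-1 motif with a free middle letter. Each window is the 250 bases before the RefSeq start in GRCh38.p14, written 5′ to 3′ on the gene's strand, with matches to TGANTCA in capitals. TFPI2 lies at chr7:93890754-93891003 (minus strand), F3 at chr1:94541760-94542009 (minus strand), PLAUR at chr19:43670170-43670419 (minus strand) and TFPI at chr2:187554436-187554685 (minus strand).
TFPI2: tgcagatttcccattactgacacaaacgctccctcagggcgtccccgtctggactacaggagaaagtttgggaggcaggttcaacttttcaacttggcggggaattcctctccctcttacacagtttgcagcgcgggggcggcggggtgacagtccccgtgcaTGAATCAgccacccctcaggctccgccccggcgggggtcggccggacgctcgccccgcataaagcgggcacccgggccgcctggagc
F3: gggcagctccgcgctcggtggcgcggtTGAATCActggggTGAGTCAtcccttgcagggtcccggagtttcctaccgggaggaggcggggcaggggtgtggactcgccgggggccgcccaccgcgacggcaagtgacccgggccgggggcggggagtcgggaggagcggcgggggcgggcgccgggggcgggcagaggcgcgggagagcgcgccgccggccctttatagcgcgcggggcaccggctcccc
PLAUR: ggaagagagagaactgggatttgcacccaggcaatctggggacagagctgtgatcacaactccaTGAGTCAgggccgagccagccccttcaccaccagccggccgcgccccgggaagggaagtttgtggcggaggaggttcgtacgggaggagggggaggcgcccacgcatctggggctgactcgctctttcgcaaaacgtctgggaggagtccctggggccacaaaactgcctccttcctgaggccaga
TFPI: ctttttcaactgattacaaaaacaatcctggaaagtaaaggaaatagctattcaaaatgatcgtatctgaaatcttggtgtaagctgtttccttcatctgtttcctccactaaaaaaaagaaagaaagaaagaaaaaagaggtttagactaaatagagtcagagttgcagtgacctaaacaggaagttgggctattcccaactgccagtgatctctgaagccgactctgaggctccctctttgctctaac
The TFPI2 match began 87 bases before the start, those of F3 began 223 and 210 bases before it, and that of PLAUR began 186 bases before it. The TFPI2 match and the F3 match at 223 read TGAATCA, and the other F3 match and that of PLAUR read TGAGTCA. A stricter AP-1 form, with only C or G in the middle, would leave out TGAATCA and so the TFPI2 match. That form was not searched. TFPI held none. The table of promoters gave 9 windows for 7 of the 9 genes, with 2 starts each for PLAU and SERPINE2, and the AP-1 letters were in 3 of these windows and in 6.57% of the 35116 windows of the same length in the whole table.

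In all, 7 short motifs were searched on both strands after the expression values were known. The GC box, GGGCGG, was in 6 of the 9 windows and in 42.6% of all windows. The EGR-type core GCGGGG, which can overlap a GC box, was in 5 of 9 and in 39.3% of all. The ETS-type core CGGAAG was in 2 of 9 (1 window each of PLAU and SERPINE2) and in 16.5% of all, and TATAAA was in 1 of 9 (F3, on the reverse strand) and in 10.7% of all. TGACG and CAGACA were in 0 of 9, against 21.2% and 13.6% of all windows. The GC content of the windows ran from 38.4% for TFPI to 78.0% for F3, and a GC-rich window holds GC-rich letters more easily. A match is a description of letters and not of a bound site.

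**Figure D2:**
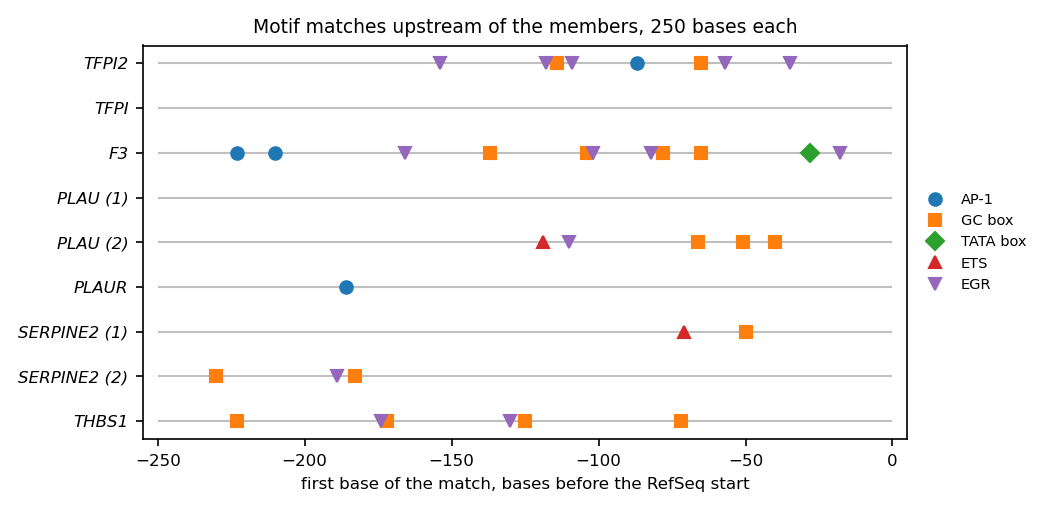
Each line is the window of 250 bases before a RefSeq start, with the distance of each match's first base from that start on the horizontal axis and a symbol per motif; numbers in brackets mark the 2 starts of PLAU and SERPINE2. Matches to the loose AP-1 form TGANTCA lie at 87 bases in TFPI2, 223 and 210 in F3 and 186 in PLAUR, and the windows of TFPI and of the first PLAU start are empty.

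F3, the gene of tissue factor, rose in co-culture. Its level was 12.7, 11.7 and 11.8 CPM in co-culture libraries 1, 2 and 3 and 8.49, 8.24 and 7.21 CPM in controls 1, 2 and 3. All co-culture values lay well above all control values, with little spread inside either group. The difference was 1.52-fold, a log2 fold change of 0.60 (SE 0.11, adjusted edgeR p 0.0178). F3 kept its direction in all 14 other settings (0.53 to 0.67) but lost the call in 6, with adjusted edgeR p-values from 0.000752 to 0.189 over all 14. These were the fits without co-culture library 1, 2 or 3 (log2 fold changes 0.57, 0.62 and 0.62, adjusted edgeR p 0.104, 0.104 and 0.0565), without control 2 (0.62, adjusted edgeR p 0.0855), with replicate number as a block, and with the forward-strand class (0.67, adjusted edgeR p 0.189).

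THBD, the gene of thrombomodulin, did not pass the test. It had 104 to 200 reads per library and stood at 5.50, 4.94 and 5.59 CPM in co-culture and at 7.38, 6.05 and 4.56 CPM in the controls. The co-culture values lay inside the range of the controls, which was wide. The log2 fold change was -0.15 (SE 0.18, adjusted edgeR p 0.650), and it was 0.03 without control 1.

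SERPINE2, the gene of protease nexin-1, showed the clearest difference of the 8 genes. It stood at 133, 124 and 132 CPM in co-culture libraries 1, 2 and 3. In controls 1, 2 and 3 it stood at 70.8, 67.9 and 71.0 CPM. The groups were separated by many times the spread inside them. SERPINE2 rose 1.85-fold, a log2 fold change of 0.89 (SE 0.06, adjusted edgeR p 4.45e-05), and by p it was the third of the 14582 tested genes. The call held in all of the 14 other settings, where the log2 fold change ran from 0.86 to 0.93 and the adjusted p reached at most 0.00606. That highest value came from the fit with the forward-strand class as a term (0.93), in which 0.199% of tested genes passed and in which SERPINE2 was the only 1 of the 8 genes to do so.

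The activators that protease nexin-1 blocks did not pass the test. PLAT, the tissue-type activator, stood at 53.2, 54.3 and 56.1 CPM in co-culture and at 51.7, 55.2 and 52.6 CPM in the controls. The groups overlapped, and no library stood out. Its log2 fold change was 0.04 (SE 0.06, adjusted edgeR p 0.760), the smallest in size of the 9 genes. PLAU, the urokinase-type activator, stood at 5.15, 4.61 and 4.36 CPM in co-culture and at 6.42, 4.85 and 3.99 CPM in the controls, with control 1 highest. Its log2 fold change was -0.11 (SE 0.19, adjusted edgeR p 0.770), with 93 to 156 reads per library. The sign of PLAU was not settled, since it was 0.09 without control 1 and 0.03 with the forward-strand class. PLAU overlaps C10orf55 on the opposite strand, and without regard to strand 23.3% of its reads were lost to ambiguity, with a log2 fold change of -0.03. Per base of transcript, PLAT was at 0.379, 0.416 and 0.403 times the level of SERPINE2 in co-culture and at 0.693, 0.772 and 0.703 times in the controls. The ratio of activator to inhibitor transcript was thus lower in each co-culture library than in each control.

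PLAUR, the cell-surface receptor that holds urokinase, rose in co-culture while PLAU itself did not pass the test. It stood at 16.1, 17.7 and 17.3 CPM in co-culture and at 13.9, 8.82 and 9.44 CPM in the controls. Control 1 stood above the other controls and close to co-culture library 1. PLAUR rose 1.59-fold, a log2 fold change of 0.67 (SE 0.15, adjusted edgeR p 0.0346). The size depended on control 1, without which it was 0.90 (adjusted edgeR p 1.05e-05). The call was lost without co-culture library 1, 2 or 3 (0.71, 0.65 and 0.66, adjusted edgeR p 0.118, 0.176 and 0.101) and without control 2 or 3 (0.56 and 0.58, adjusted edgeR p 0.153 and 0.0580). It was also lost with total counts as the scale (0.64, adjusted edgeR p 0.0513), with replicate number as a block, and with the forward-strand class (0.59, adjusted edgeR p 0.342), so that adjusted p-values ran from 1.05e-05 to 0.342. Per base of transcript, PLAUR was at 5.16, 6.33 and 6.54 times the level of PLAU in co-culture and at 3.58, 3.00 and 3.91 times in the controls.

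THBS1, the gene of thrombospondin-1, passed the test narrowly. It stood at 13.5, 16.5 and 16.6 CPM in co-culture and at 9.96, 12.3 and 11.3 CPM in the controls. Co-culture library 1 was the lowest of its group and lay just above control 2. THBS1 rose 1.39-fold, a log2 fold change of 0.48 (SE 0.12, adjusted edgeR p 0.0457). With the forward-strand class as a term, where co-culture library 1 carries the difference, the log2 fold change was 0.27 (SE 0.16, adjusted edgeR p 0.516). The call was also lost without co-culture library 1, 2 or 3 (0.57, 0.44 and 0.43, adjusted edgeR p 0.0816, 0.210 and 0.140), without control 2 or 3 (0.55 and 0.49, adjusted edgeR p 0.118 and 0.0548), with replicate number as a block, and with total counts (0.44, adjusted edgeR p 0.0512). Over the 14 settings its adjusted p ran from 0.0132 to 0.516.

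**Figure D3:**
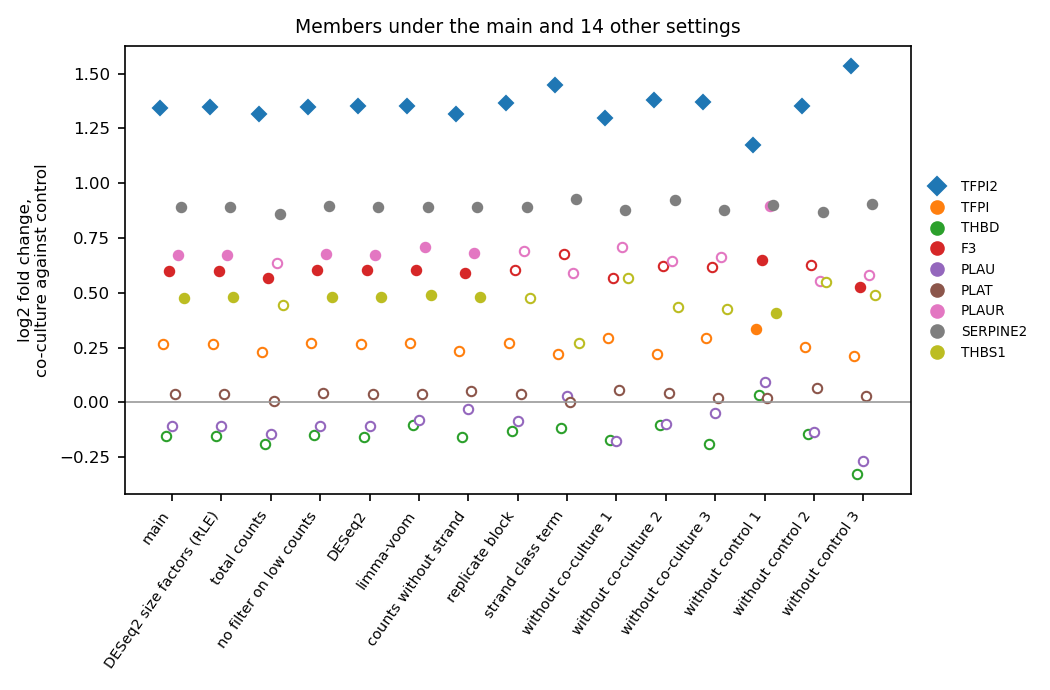
The log2 fold change of each gene (vertical axis, co-culture against control) is plotted under the main and 14 other settings (horizontal axis); filled circles passed an adjusted p of 0.05, open circles did not, and TFPI2 (diamonds) has no test. SERPINE2 is filled throughout, between 0.86 and 0.93, whereas F3, PLAUR and THBS1 are open in several settings without changing sign.

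Levels were compared between genes per kilobase of the longest protein-coding transcript in GENCODE release 29. In the controls the order was SERPINE2 with 27.2 CPM per kilobase, PLAT with 19.6, TFPI with 6.98, PLAUR with 6.66, TFPI2 with 6.61, F3 with 3.49, PLAU with 1.91, THBD with 1.46 and THBS1 with 1.44. TFPI, PLAUR and TFPI2 did not differ beyond their spread, since TFPI2 ran from 4.96 to 8.16 and PLAUR from 5.48 to 8.63 CPM per kilobase over the controls. The ranges of PLAU, THBD and THBS1 also overlapped, although within each control PLAU was above both others, at 1.34, 1.24 and 1.35 times the level of THBD and 1.89, 1.15 and 1.03 times that of THBS1. In co-culture the order was SERPINE2 with 50.4, PLAT with 20.1, TFPI2 with 16.9, PLAUR with 10.6, TFPI with 8.39, F3 with 5.28, THBS1 with 2.00, PLAU with 1.77 and THBD with 1.30 CPM per kilobase. TFPI2 thus moved from the fifth to the third place, above PLAUR and TFPI in every co-culture library, with a lowest value of 16.2 against a highest of 10.98 and 8.93. This move restates the increase for which TFPI2 was chosen. THBS1 and PLAU overlapped in co-culture. SERPINE2 and PLAT led in both groups.

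The genes whose pattern over the 6 libraries was most like that of TFPI2 were ASB16-AS1, NUDT13, CDH2, ENDOD1 and ARL2, with Pearson correlations of log2 CPM of 0.998, 0.997, 0.996, 0.994 and 0.994. These are the highest of 11646 genes averaging 5 CPM or more, over 6 libraries that share the group difference, and serve as a description only. In all 5, as in TFPI2, control 1 was lowest, control 3 was the highest control and co-culture library 1 was highest, but the differences were smaller. ASB16-AS1, an antisense RNA gene counted here on its own strand, was at 19.4 to 20.4 CPM in co-culture against 13.6 to 15.6 CPM in controls. CDH2, the gene of N-cadherin, was at 275 to 282 CPM and 230 to 253 CPM. ASB16-AS1 was 1.35-fold higher and CDH2 had a log2 fold change of 0.20, against 2.54-fold and 1.34 for TFPI2. Among the other genes described here that reached this mean (all but PLAU), SERPINE2 was most like TFPI2, with a correlation of 0.954. That was place 163 among the 11646 genes, so the likeness was not particular to this pair.

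Beyond these 9 genes, 9 lists of 76 genes of coagulation, the plasmin system and related functions were followed, of which 43 had enough reads to be tested. Of the 43 genes, 5 passed the test, all higher in co-culture, and 32 had a positive log2 fold change. Over all tested genes 4.83% passed, 2.66% as higher, and 49.6% had a positive log2 fold change. The median log2 fold change was 0.10, against -0.0022 over all tested genes. The lists too were chosen with earlier results of these data known, so these comparisons are a description. Most circulating factors were not transcribed at a testable level: 13 of 16 coagulation factor genes were not tested, and the 3 tested ones (F5, F8 and F12) did not pass in edgeR or in DESeq2, with 1 (F5) at an unadjusted edgeR p under 0.05. F5, the gene of factor V, was at 1.09 ± 0.157 CPM in co-culture against 1.77 ± 0.235 CPM in controls (SD, n = 3 each; log2 fold change -0.71, SE 0.25, adjusted edgeR p 0.118), with every co-culture library below every control. F8, the gene of factor VIII, had the most reads of the 3, at 5.37 ± 0.422 CPM in co-culture against 4.39 ± 0.359 CPM in controls (SD, n = 3 each; log2 fold change 0.29, SE 0.15, adjusted edgeR p 0.282). Every co-culture library lay above every control for F8. Over all tested genes, groups lay apart in either direction for 29.3%. Plasminogen itself (PLG) had 0 reads in all libraries, which allows up to 0.0828 to 0.157 CPM, a limit that covers counting error only.

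In the plasmin system, 5 of 7 tested genes had a positive log2 fold change, against 49.6% of all tested genes. Of the 7, 2 passed the test as higher, against 2.66% of all tested genes, namely ANXA2 and S100A10. Their proteins, annexin A2 and p11, form a cell-surface complex that binds plasminogen and its tissue-type activator. ANXA2 stood at 183, 203 and 217 CPM in co-culture and at 135, 142 and 140 CPM in the controls. The groups were well apart, and ANXA2 rose with a log2 fold change of 0.53 (SE 0.07, adjusted edgeR p 0.00300). ANXA2 has processed pseudogenes, so that reads lost to several map positions are uncertain. S100A10 stood at 141, 143 and 147 CPM in co-culture and at 127, 115 and 103 CPM in the controls, with a log2 fold change of 0.32 (SE 0.07, adjusted edgeR p 0.0345). The difference was 1.25-fold, and control 1 was nearest to co-culture. ANXA2 lost its call only with the forward-strand class (0.39, adjusted edgeR p 0.159; range over 14 settings 4.02e-09 to 0.159). S100A10 lost it in 8 of 14 settings, among them the fits without co-culture library 1, 2 or 3 (0.34, 0.33 and 0.31) or control 2 or 3 (0.32 and 0.25) and the fit with the forward-strand class (0.29, adjusted edgeR p 0.342), with adjusted edgeR p-values over all 14 from 8.91e-05 to 0.342.

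The receptors that proteases of coagulation cleave were also followed. Of 3 tested genes, 2 passed the test as higher, against 2.66% of all tested genes. F2RL2 did not pass, at a mean of 1.10 CPM in co-culture against 0.641 CPM in controls (log2 fold change 0.81, SE 0.29, adjusted edgeR p 0.128). F2RL3 had 0 reads. F2RL1, which encodes the trypsin- and factor VIIa-responsive receptor PAR2, stood at 106, 106 and 111 CPM in co-culture and at 71.1, 84.8 and 83.9 CPM in the controls. It rose with a log2 fold change of 0.43 (SE 0.07, adjusted edgeR p 0.0112). F2R, which encodes the main thrombin receptor PAR1, stood at 99.97, 96.98 and 97.2 CPM against 83.7, 85.8 and 83.4 CPM. It rose 1.16-fold, a log2 fold change of 0.22 (SE 0.05, adjusted edgeR p 0.0471). In all 3 tested genes every co-culture library lay above every control, as for 14.3% of all tested genes. F2RL1 no longer passed without co-culture library 1 or 2 or control 2 (0.44, 0.44 and 0.47, adjusted edgeR p 0.0546, 0.0719 and 0.0541) and with the forward-strand class (0.40, adjusted edgeR p 0.227). F2R lost it in 10 of 14 settings, among them the fits without any library other than control 1 (0.21 to 0.23) and the fit with the forward-strand class (0.25, adjusted edgeR p 0.299), with adjusted edgeR p-values over all 14 from 0.00746 to 0.299.

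Among other genes with Kunitz domains, the inhibitor fold that TFPI and TFPI2 share, 4 of 6 tested genes had a positive log2 fold change. The share over all tested genes was 49.6%. Of the 6, 1 passed the test as higher (COL7A1), against 2.66% of all tested genes. COL7A1 encodes the collagen of anchoring fibrils and stood at 16.8, 18.2 and 15.3 CPM in co-culture and at 10.8, 6.89 and 9.13 CPM in the controls. It rose 1.86-fold, a log2 fold change of 0.90 (SE 0.15, adjusted edgeR p 0.0101). The call was lost without co-culture library 1 or 2 or control 2 (0.90, 0.84 and 0.75, adjusted edgeR p 0.0651, 0.0822 and 0.0512) and with the forward-strand class (0.91, adjusted edgeR p 0.181). APP, the amyloid precursor gene, which had the most reads of this list, was at 871 ± 26.3 CPM and 810 ± 19.1 CPM (SD, n = 3 each; log2 fold change 0.10, adjusted edgeR p 0.334). Every co-culture library lay above every control for APP, as for 14.3% of all tested genes.

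In the other 5 lists, 0 of 24 tested genes passed in edgeR, where 6 had an unadjusted p under 0.05, and DESeq2 called 2 (LMAN1 and TIMP1). Over all tested genes edgeR called 4.83%, and DESeq2 called 1032 of 13732. The count depended on control 1, both in these lists and over all genes. Without control 1, 8 of the 24 passed in edgeR (PROCR, THBS2, THBS3, GGCX, LMAN1, MMP2, TIMP1 and TIMP2). In that fit 3069 of all 14734 tested genes passed. With no filter on low counts 1 of the 24 did (TIMP1), and 864 of all 19187 genes. The values below are with all libraries. Of the anticoagulant proteins, ANXA5, the phosphatidylserine-binding annexin, had the most reads and a log2 fold change of -0.07 (SE 0.06, adjusted edgeR p 0.508), and PROCR, the endothelial protein C receptor, had 0.30 (SE 0.09, adjusted edgeR p 0.0750). Of thrombospondins and their receptors, CD47 had the most reads and a log2 fold change of 0.05 (SE 0.06, adjusted edgeR p 0.649). LMAN1, the cargo receptor for factors V and VIII, had 0.20 (SE 0.06, adjusted edgeR p 0.0881). TMEM30A, the flippase subunit, had -0.04 (SE 0.07, adjusted edgeR p 0.760). Of matrix proteases and their inhibitors, TIMP2 had the most reads and a log2 fold change of 0.07 (SE 0.07, adjusted edgeR p 0.588).

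**Figure D4:**
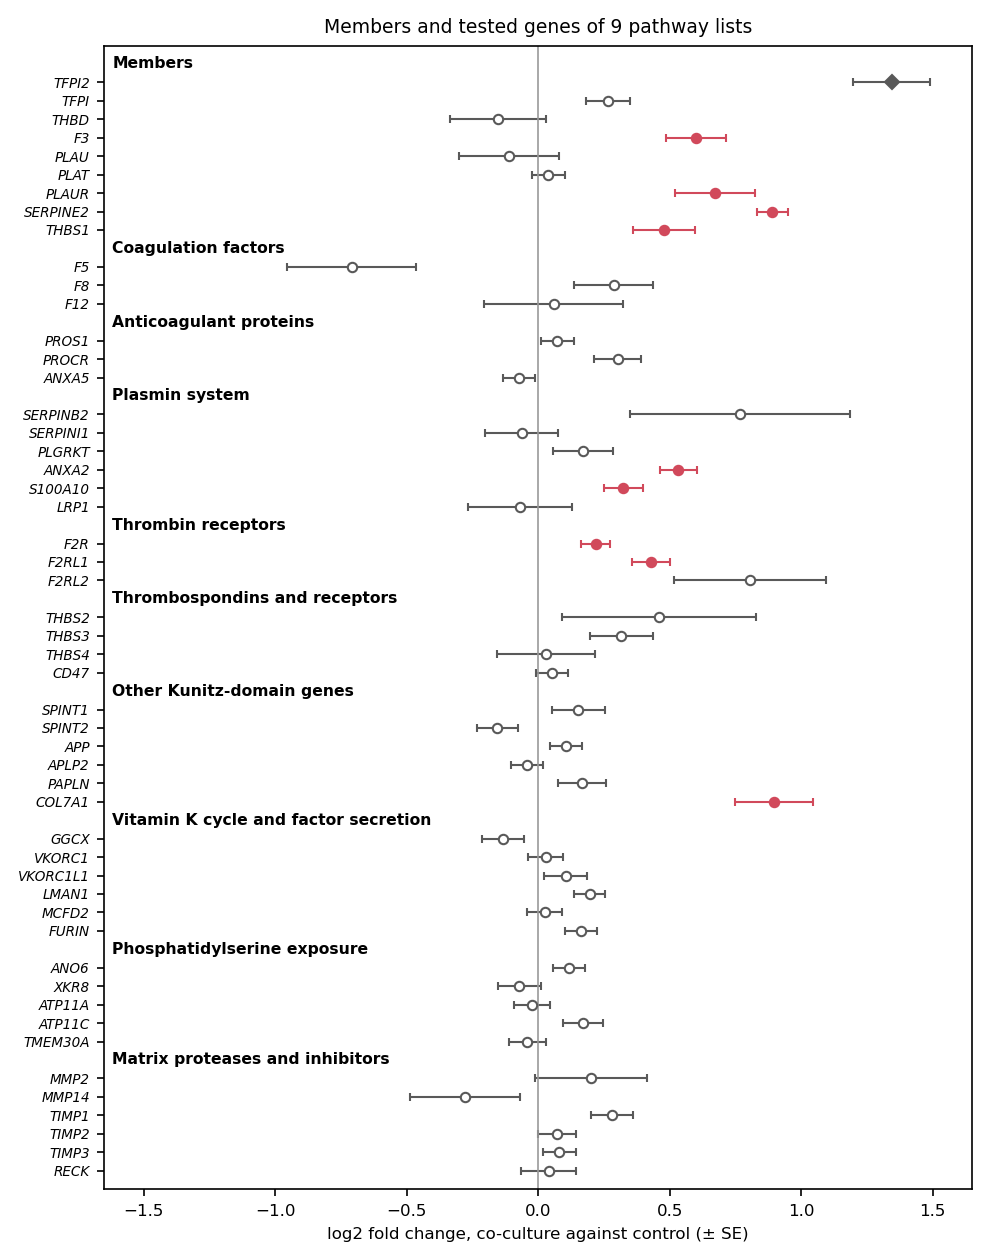
Log2 fold changes (horizontal axis, co-culture against control, with SE) are plotted for the 9 genes and for 42 of the 43 tested genes of 9 lists; red filled circles passed an adjusted p of 0.05, open circles did not, and TFPI2 (diamond) has no test. The red points are SERPINE2, PLAUR, F3, THBS1, ANXA2, S100A10, F2R, F2RL1 and COL7A1, all to the right of 0.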

How the data were processed

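As deposited, each sample has 1 file of raw read counts per gene symbol, in the layout of STAR's gene counting. Per the submitters' processing notes, STAR (version given as 2.53a), FastQC and the build hg18 were used; the annotation is not given in the sources used here. Libraries were stranded per the labels' protocols, and the reverse-strand counts were used. The summary lines (24.2% to 28.5% of reads) were left out. Groups and replicate numbers came from the titles. Pairs of libraries of a group differed by 4.56 to 17.7 times sampling noise (chi-square per degree of freedom), so none was a repeat.

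The fit of all genes used edgeR 4.0.16 under R 4.3.3, with no term but group: filterByExpr at a minimum count of 10 (14582 genes left), TMM scaling, robust quasi-likelihood F test and Benjamini-Hochberg adjustment over all tested genes at 0.05. SEs are the absolute log2 fold change over the square root of F. The alternatives were other scalings, no filter, DESeq2 1.42.0, limma 3.58.1 (voom), counts without strand, a replicate block, a forward-strand class term and each library left out. The members, lists and alternatives were chosen with earlier results of these data known. From each list the genes named were up to 3 that passed and the gene with most reads; a few others were named after their values were seen. A gene of the lists is not reported here. Log2 CPM used a prior of 0.5 reads. Lengths came from GENCODE release 29 and promoter windows from RefSeq (GRCh38.p14), for 7 of 9 genes; no coordinates of reads were used.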

Additional observations from a re-analysis of the deposited data

How the results depend on the processing

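The log2 fold change of TFPI2, the value it was chosen on, ran from 1.18 to 1.54 over the fits that left out a library. Over those fits the count of genes that passed ran from 65 to 3069 (main 704), that of the 8 other coagulation genes from 1 to 5 (main 4) and that of the wider lists from 1 to 17 (main 5). Without control 1 the 3 counts were 3069, 5 and 17, and without control 2 they were 65, 1 and 1. They were 123, 1 and 1 without co-culture library 1, 74, 1 and 1 without co-culture library 2, and 321, 1 and 3 without co-culture library 3. Without control 3 they were 735, 2 and 4. With the forward-strand class as a term they were 29, 1 and 0; beside the 0, 6 list genes had an unadjusted edgeR p under 0.05 in that fit, and DESeq2 without the term called 7. With total counts the 8 genes gave 2 and the lists 3, and all tested genes gave 310 higher and 572 lower against 388 and 316. With the replicate block the counts were 164, 1 and 3. F3, PLAUR and THBS1 then stood at 0.60, 0.69 and 0.48 on the log2 scale (adjusted edgeR p 0.0642, 0.0782 and 0.0753). Same-numbered samples did not deviate together (correlations -0.04, -0.08 and -0.08). With 3 libraries per group this cannot show whether they shared a batch, and the labels name none. The sign of the log2 fold change turned for THBD, which ran from -0.33 to 0.033 over the fits that left out a library, and for PLAU, which ran from -0.27 to 0.091 there and was 0.027 with the class term; both turned without control 1, and the cause was not tested. Of the 8 genes, 4 or more passed with DESeq2, limma-voom, DESeq2's size factors, no filter and counts without strand. THBD and PLAU had the fewest reads of the 9 genes, which limits what could be detected for them.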
